A study of Mus musculus with 6 samples.

Results

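The nuclear genes for the subunits of oxidative phosphorylation were followed in cardiac fibroblasts of KDM5B-KO and WT mice after myocardial infarction (MI). They were chosen by gene symbol alone, as the genes on nuclear chromosomes whose symbols begin with Nduf, Sdh, Uqcr, Cox or Atp5 and follow the usual pattern for subunits, without pseudogenes. The rule gave 83 of the 34745 listed genes, of which 36 belong to complex I, 4 to complex II, 8 to complex III, 18 to complex IV and 17 to complex V by their symbols. Of these, 79 passed the expression filter, as did 14084 of all genes. The RNA-seq compared 3 libraries labelled KO with 3 labelled WT. The KO mice are on a C57BL/6 background and carry a CRISPR/Cas9 deletion with a frameshift in the region of *Kdm5b* that codes for the JmjC domain, the part of this histone demethylase with the enzyme activity, and the controls are WT littermates. All mice were males of 8 to 10 weeks, all had MI induced by tying off the left anterior descending artery of the heart, and fibroblasts were isolated from the left ventricle on Day 7. There was no sham group, and the labels do not say whether each library came from a separate animal, so the p-values measure the spread between these libraries, which may be technical.

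Oxidative phosphorylation moves electrons from NADH and succinate through complexes I to IV of the inner mitochondrial membrane to oxygen, and complex V (ATP synthase) uses the resulting proton gradient to make ATP. Complex I takes electrons from NADH and complex II from succinate, complex III passes them from ubiquinol to cytochrome c, and complex IV reduces oxygen. Most subunits are encoded in the nucleus, a small core is encoded in the mitochondrial genome, and complex II is entirely nuclear. The heart muscle cell is rich in these complexes and uses muscle isoforms of several complex IV subunits, whereas fibroblasts use the broadly expressed isoforms.

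The libraries held 12025403 to 15329427 counts on genes, and a count of 0 in the smallest allows up to 3 counts, or 0.249 CPM (counts scaled to the library's total). *Kdm5b* itself was at 98.1, 107 and 105 CPM in the KO libraries and at 108, 129 and 123 CPM in the WT libraries (log2 fold change -0.22, SE 0.07, adjusted p = 0.0574), so its RNA was still counted in the KO libraries, and the difference missed the threshold. The counts cover the whole gene and not the deleted bases alone, and KO and WT mean the libraries so labelled. Fibroblast markers were present in every library, at a summed level of 26727 to 31178 CPM in KO and 37406 to 39847 CPM in WT, and 11 of 12 were lower in KO. Markers of other cells differed as well. Of the 11 endothelial markers 11 were higher, with summed levels of 1524 to 2191 CPM against 286 to 296 CPM. Of the 15 cardiomyocyte markers 9 were lower (1428 to 1519 CPM against 1730 to 1762 CPM), and of the 10 macrophage markers tested 6 were lower and 1 higher (1232 to 1265 CPM against 1521 to 1629 CPM). A single macrophage marker was at 0 in every library, and none of the other lists had such a gene. The part of these shifts in the values of the subunit genes was not tested, and in such bulk samples fewer cells of a type and less RNA per cell cannot be told apart.

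The nuclear subunit genes differed little between the KO and WT libraries. Tested in edgeR by quasi-likelihood, with Benjamini-Hochberg adjustment over every gene that passed the filter and a threshold of 0.05, 6 of 79 were higher in KO, namely *Ndufa5*, *Ndufa8*, *Ndufa9* and *Ndufb8* of complex I and *Cox8a* and *Cox6c* of complex IV. The muscle isoform *Cox6a2* and the complex I gene *Ndufa7* were lower. These 8 genes are 10.1% of the members tested, where 30.2% of all genes tested passed the same threshold, 17.7% as higher and 12.5% as lower. The median log2 fold change of the members was -0.03, with the middle 50% of values from -0.12 to 0.11, and that of all genes was -0.02, with the middle 50% from -0.21 to 0.22. The fitted changes ran from -0.78 for *Atp5g2*, which did not pass the threshold, to 0.38 for *Ndufa5*. Beyond 1.5-fold there were 3 members, and beyond 2-fold there were 0.

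**Figure D1:**
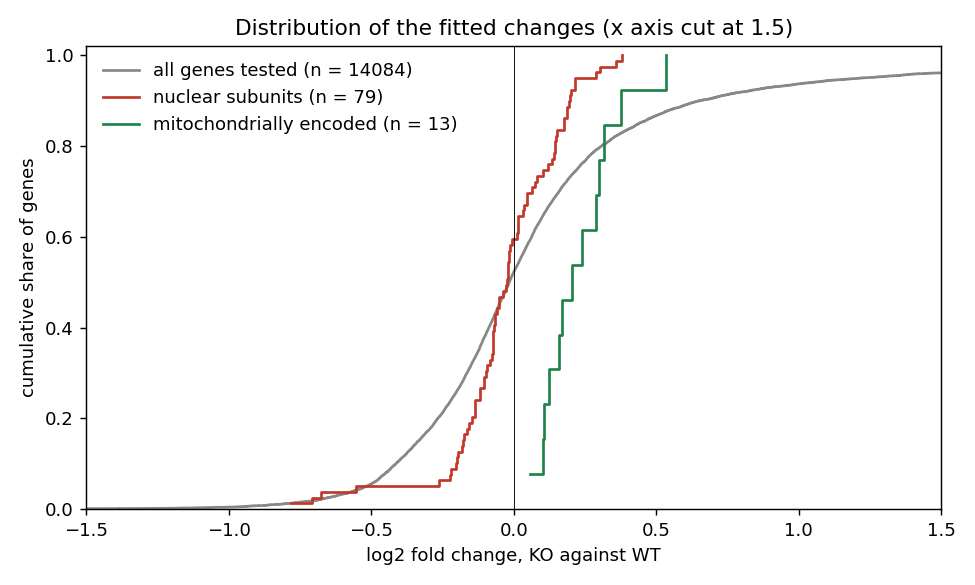
Cumulative share of genes (y axis, 0 to 1) by log2 fold change of KO against WT (x axis, shown to 1.5 on either side of 0) for all 14084 genes tested, the 79 nuclear subunit genes and the 13 subunit genes of the mitochondrial genome. The curve of the nuclear subunits is steeper than that of all genes around a median of -0.03, and the curve of the mitochondrial genes lies to the right of 0 throughout.

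The members were well expressed. Their median level was 23.8 FPKM (counts scaled to the gene's length and the library's total), against 4.41 FPKM for all genes tested, and 61 of them had a mean of at least 10 FPKM. Among genes of at least 10 FPKM, 38.2% of 4140 passed the threshold (16.5% higher and 21.7% lower), against 7 of the 61 members at that level, or 11.5%. The 95% interval of the fold change lay within 1.5-fold in either direction for 72 of the 79 members (91.1%), and for 57.8% of all genes. At 10 FPKM and above it did so for 61 of 61 members and for 84.5% of all genes. Between replicates the members varied with a median coefficient of variation of 5.47% in KO and 5.05% in WT, where all genes had 8.49% and 7.31%. The KO and WT libraries did not overlap in CPM for 26 of the 79 members (32.9%), 11 of them higher and 15 lower, whereas 47.0% of all genes did not overlap, 24.7% higher and 22.4% lower. An unadjusted p under 0.05 was reached by 19 members (24.1%), and by 41.4% of all genes.

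The split into higher and lower genes depended on how the libraries were scaled. With TMM factors, the scaling used throughout, it was 6 higher and 2 lower. With library size alone it was 9 and 1, and with the upper quartile 5 and 8. Library size added *Cox5a*, *Ndufs1* and *Sdhd* as higher, and the upper quartile added *Atp5g2*, *Cox6b2*, *Ndufa2*, *Ndufb11*, *Sdha* and *Uqcrc2* as lower. When the libraries were scaled so that cardiomyocyte and macrophage markers had a median ratio of 1, it was 57 and 0, but that scaling moved the median of all genes to 0.35 and called 8002 genes higher and 68 lower, and the members' median of 0.34 lay beside it. The members' median was 0.01 with library size, where that of all genes was 0.02, and -0.07 with the upper quartile, where that of all genes was -0.06, so its sign turned with the scaling. The count of 2 lower genes became 0 without KO replicate 1 or 3 and 1 without any of the WT replicates in turn, which was *Atp5g2* without WT replicate 1 and *Cox6a2* without the others.

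Complex I, NADH dehydrogenase, had 4 genes higher and 1 lower of 36 by edgeR (13.9%, where 30.2% of all genes passed in either direction). DESeq2 called 3 genes and limma 6. The median log2 fold change of the 36 was -0.02 and the range ran from -0.22 to 0.38. *Ndufa5*, an accessory subunit of the arm that carries electrons to ubiquinone (chr6:24518666-24528013, minus strand, mm10), was at 18.6, 18.2 and 17.3 FPKM in KO and at 14.3, 13.6 and 12.7 FPKM in WT. The KO libraries all lay above the WT libraries, and this was the largest rise of the members (log2 fold change 0.38, SE 0.08, adjusted p = 0.0107). *Ndufa8*, an accessory subunit of the membrane arm that faces the intermembrane space (chr2:36036326-36049406, minus strand), was at 68.6, 75.04 and 74.93 FPKM in KO and at 53.6, 57.5 and 55.4 FPKM in WT. The gap between the lowest KO and the highest WT library was wider than the spread within either group (log2 fold change 0.36, SE 0.07, adjusted p = 0.00436).

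*Ndufa9*, an accessory subunit near the junction of the peripheral and membrane arms (chr6:126821721-126849136, minus strand), was at 32.0, 31.8 and 30.3 FPKM in KO and at 25.2, 26.8 and 23.3 FPKM in WT. Again the groups did not overlap (log2 fold change 0.29, SE 0.07, adjusted p = 0.0122). *Ndufb8*, a membrane arm subunit (chr19:44548572-44555440, minus strand), was at 11.6, 10.9 and 11.4 FPKM in KO and at 9.45, 9.51 and 9.51 FPKM in WT. The WT libraries were almost equal and all KO libraries lay above them (log2 fold change 0.22, SE 0.06, adjusted p = 0.0212). *Ndufa7*, an accessory subunit of the NADH-oxidizing arm (chr17:33824591-33838316, plus strand), was at 17.1, 16.7 and 15.8 FPKM in KO and at 18.2, 19.2 and 18.2 FPKM in WT. All KO libraries were below the WT libraries, by 0.20 on the log2 scale (SE 0.06, adjusted p = 0.0398), but the gene passed the threshold in only 2 of 15 alternative settings and its log2 fold change was 0.17 with marker scaling. In the other 12 it missed the threshold with log2 fold changes from -0.21 to -0.15, near the value given. In contrast, *Ndufa5*, *Ndufa8* and *Ndufa9* passed it in 15 of 15, and *Ndufb8* in 9 of 15, being lost with DESeq2 and without KO replicates 1 or 3 or any of the WT replicates, where its log2 fold change stayed between 0.20 and 0.22.

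The genes of complex I called with TMM factors were accessory subunits. The 7 core subunits encoded in the nucleus, which bind NADH, the flavin and the iron-sulfur clusters and line the ubiquinone site, gave 0 calls by edgeR with TMM factors, 1 unadjusted p under 0.05, and 0 calls by DESeq2 or limma, and their log2 fold changes lay between -0.16 and 0.15. *Ndufs1*, which carries several iron-sulfur clusters, was at 8.72, 8.32 and 9.19 FPKM in KO and at 7.99, 7.53 and 7.61 FPKM in WT. Its groups did not overlap, and the log2 fold change of 0.15 (SE 0.06) missed the threshold at an adjusted p = 0.0824, whereas with library size it was called, at 0.18. *Ndufv1*, the subunit that binds NADH, was at 8.40, 8.36 and 7.71 FPKM in KO and at 6.85, 7.75 and 8.09 FPKM in WT (log2 fold change 0.07, adjusted p = 0.526). *Ndufv2*, its iron-sulfur partner, had a log2 fold change of 0.10 (adjusted p = 0.470). The groups overlapped in both.

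Of the core subunits next to the ubiquinone site, *Ndufs8* was at 42.3, 44.9 and 43.8 FPKM in KO and at 41.9, 43.8 and 43.5 FPKM in WT. The groups overlapped. *Ndufs7* had a log2 fold change of -0.02 and *Ndufs8* of -0.01, with intervals from -0.20 to 0.16 and from -0.16 to 0.13, so larger changes than these intervals allow were not seen with 3 libraries per group. By position in the complex, the NADH-oxidizing module had 0 genes higher and 1 lower of 10, and the ubiquinone module 1 and 0 of 5. The membrane arm with the remaining subunits had 3 and 0 of 20. These are 10%, 20% and 15% called, each below the 30.2% of all genes tested. *Ndufa4*, which carries a complex I symbol but is now counted with complex IV, had a log2 fold change of -0.22 and overlapping groups (adjusted p = 0.183). The complex I member with the highest mean over all libraries was *Ndufa2*, an accessory subunit of the NADH-oxidizing arm, at 70.5, 77.9 and 68.4 FPKM in KO and at 88.1, 81.5 and 77.6 FPKM in WT. The highest KO library, at 77.9 FPKM, lay just above the lowest WT library in FPKM and just below it in the TMM-scaled CPM used for the test (log2 fold change -0.22, adjusted p = 0.0659). In KO alone *Ndufa8*, *Ndufa2*, *Ndufa6* and *Ndufb9* had means from 70.8 to 72.8 FPKM, within their spread.

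Complex II, succinate dehydrogenase, gave 0 calls of 4 by edgeR with TMM factors, 2 unadjusted p-values under 0.05, 0 calls by DESeq2 and 1 by limma, and its log2 fold changes ran in both directions. *Sdha*, the flavoprotein that oxidizes succinate, was at 36.7, 37.1 and 40.02 FPKM in KO and at 41.1, 39.9 and 39.6 FPKM in WT, with a log2 fold change of -0.12 (SE 0.05, adjusted p = 0.108). KO replicate 3 lay within the range of the WT libraries in FPKM, and the groups did not overlap in CPM. With the upper quartile *Sdha* was called lower, at -0.16. *Sdhd*, a membrane anchor, was at 74.9, 72.9 and 79.7 FPKM in KO and at 67.4, 68.1 and 66.9 FPKM in WT. The KO libraries were above the WT libraries here, with a log2 fold change of 0.13 (SE 0.05, adjusted p = 0.0924), and this was the gene that limma called, as did edgeR with library size, at 0.17. The iron-sulfur subunit *Sdhb* (log2 fold change 0.02, adjusted p = 0.875) and the other anchor *Sdhc* (-0.07, adjusted p = 0.311) lay between them.

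Complex III, the cytochrome bc1 complex, gave 0 calls of 8 by edgeR with TMM factors, 1 unadjusted p under 0.05 and 0 calls by DESeq2 or limma. *Uqcrc1* and *Uqcrc2* code for the large core proteins and *Uqcrfs1* for the Rieske iron-sulfur protein. *Uqcrc2* was at 33.4, 34.8 and 31.1 FPKM in KO and at 37.8, 34.6 and 36.3 FPKM in WT, with a log2 fold change of -0.17 (SE 0.06, adjusted p = 0.0750). The groups overlapped slightly in FPKM and did not overlap in CPM, and with the upper quartile the gene was called lower, at -0.21. The log2 fold change of *Uqcrc1* was -0.07 (adjusted p = 0.269) and that of *Uqcrfs1* was -0.07 (adjusted p = 0.393). *Uqcrb*, an accessory subunit near the ubiquinone site and the member with the highest level in this complex, was at 54.2, 56.0 and 52.7 FPKM in KO and at 60.7, 53.8 and 51.1 FPKM in WT, which overlapped (log2 fold change -0.06). *Uqcrq* had a single low library, WT replicate 2 at 30.7 FPKM, where the other 5 lay between 47.5 and 51.4 FPKM. Its log2 fold change of 0.20 had an SE of 0.15 (adjusted p = 0.366).

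Complex IV, cytochrome c oxidase, had 2 genes higher and 1 lower of 14 tested by edgeR (21.4%, where 30.2% of all genes passed in either direction). DESeq2 called 2 genes and limma 6, among them *Cox5a*, *Cox7a2* and *Cox6b2*, which edgeR did not call with TMM factors. In edgeR, *Cox5a* was called with library size, *Cox6b2* with the upper quartile, and *Cox5a* and *Cox7a2* with marker scaling. *Cox8a*, a small nuclear subunit (chr19:7215158-7217616, minus strand), was at 275, 274 and 281 FPKM in KO and at 229, 214 and 215 FPKM in WT. The KO libraries lay close together and well above the WT libraries (log2 fold change 0.30, SE 0.05, 95% interval 0.19 to 0.42, adjusted p = 0.00246), and the gene passed the threshold in 15 of 15 alternative settings. Its mean level over all libraries was the highest of the members. *Cox6c*, a small accessory subunit (chr15:35925886-35938246, minus strand), was at 14.7, 13.8 and 13.7 FPKM in KO and at 11.9, 12.3 and 11.3 FPKM in WT. Its groups did not overlap (log2 fold change 0.21, SE 0.06, adjusted p = 0.0264), but the call was lost with DESeq2, with upper-quartile scaling and without KO replicate 1 or WT replicates 1 or 3, where its log2 fold change was 0.17 to 0.22.

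The other complex IV genes with high levels had smaller or less certain differences. *Cox4i1*, *Cox5a* and *Cox5b* code for the largest nuclear subunits around the catalytic core. *Cox5a* was at 114, 115 and 117 FPKM in KO and at 104, 104 and 97.5 FPKM in WT, with no overlap and a log2 fold change of 0.14 (SE 0.05, adjusted p = 0.0777). *Cox4i1* was at 113, 85.8 and 77.4 FPKM in KO and at 84.4, 65.8 and 83.9 FPKM in WT, so its libraries varied more within each group (log2 fold change 0.20, SE 0.14, adjusted p = 0.325). The log2 fold change was 0.04 without KO replicate 1, 0.09 without WT replicate 2 and 0.32 without KO replicate 3. *Cox5b* had a log2 fold change of 0.03 (adjusted p = 0.830), and without KO replicate 1 it was -0.09. In level, *Cox8a* (248 FPKM over all libraries) was followed by *Cox6b1* (209 FPKM), *Cox6a1* (145 FPKM), the complex V gene *Atp5b* (141 FPKM), *Cox5a* (109 FPKM), *Cox7a2l* (102 FPKM) and *Atp5a1* (100 FPKM), and these 7 were the members at 100 FPKM or more. In this order *Cox7a2l* and *Atp5a1* did not differ beyond their spread in either group, and *Cox6a1* and *Atp5b* did not in KO, whereas in WT every *Cox6a1* value was above every *Atp5b* value. Within WT alone *Cox8a* (219 ± 8.4 FPKM, SD, n = 3) and *Cox6b1* (217 ± 16 FPKM) did not differ beyond their spread, nor did *Cox5a*, *Cox7a2l* and *Atp5a1*, so the places of *Cox8a* and *Cox5a* above their neighbours rest on the KO libraries. FPKM divides by the length of the gene model, which the deposited values imply to be 545 bases for *Cox8a* and 6918 bases for *Atp5b*, so the order between genes depends on those models.

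**Figure D2:**
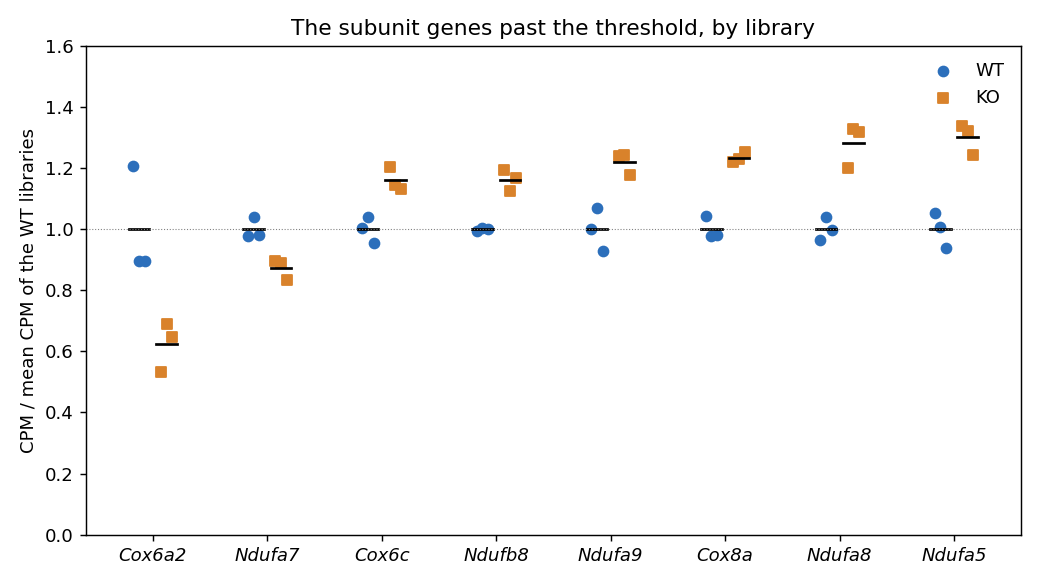
CPM of each library relative to the mean CPM of the 3 WT libraries (y axis, from 0) for the 8 subunit genes at an adjusted p under 0.05, with WT libraries as circles, KO libraries as squares and a black line at each group's mean. For each of the 8 genes the KO squares do not overlap the WT circles, and the widest spread is that of *Cox6a2*, whose WT replicate 1 stands above the other WT libraries.

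Several complex IV subunits exist as a broad isoform and an isoform of heart and skeletal muscle or another tissue, and the muscle isoforms were low in these libraries. *Cox6a2*, the muscle isoform of subunit VIa (chr7:128205435-128206387, minus strand), was at 5.63, 7.21 and 6.81 FPKM in KO and at 12.4, 9.19 and 9.19 FPKM in WT. The KO libraries lay below the WT libraries, and the log2 fold change was -0.68 (SE 0.18, adjusted p = 0.0235), the largest change of any called member. It rests on 46 to 122 counts per library. The call was lost with marker scaling, with the replicate block and without KO replicate 1, KO replicate 3 or WT replicate 1, with adjusted p from 0.0130 to 0.149 over the alternatives and log2 fold changes from -0.75 to -0.31. Beside it, 9 of 15 cardiomyocyte markers were lower, the median of the list was -0.41 and none was at 0, and their part in the value of *Cox6a2* was not tested. *Cox6a2* shares 70 exonic bases with *Itgad* on the opposite strand, which was at 0 counts throughout. Its broad counterpart *Cox6a1* was at 142, 150 and 137 FPKM in KO and at 150, 148 and 142 FPKM in WT (log2 fold change -0.07, adjusted p = 0.340). Of the summed FPKM of this pair, *Cox6a2* made up 3.81%, 4.60% and 4.75% in KO and 7.67%, 5.85% and 6.07% in WT.

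The other muscle isoforms were at a few counts. *Cox7a1* was at 1.43 to 2.28 FPKM in KO and at 1.29 to 2.28 FPKM in WT, on 7 to 12 counts per library, or 2.20% to 3.78% of its pair with *Cox7a2* (log2 fold change 0.18, SE 0.39). *Cox7a2* itself was at 61.9, 66.9 and 62.6 FPKM in KO and at 58.2, 57.6 and 53.4 FPKM in WT, without overlap but short of the threshold (log2 fold change 0.14, adjusted p = 0.143). The isoform *Cox8b*, at 2 to 9 counts, and *Cox4i2*, the isoform known from lung, at 7 to 13 counts, did not pass the filter of the main test and made up 0.167% to 0.776% and 0.501% to 0.909% of their pairs. *Cox6b2*, an isoform known from testis, was at 0.355, 0.322 and 0.349 FPKM in KO and at 0.543, 0.575 and 0.525 FPKM in WT. The KO libraries were all lower, on 12 to 24 counts each (log2 fold change -0.71, SE 0.25, adjusted p = 0.0621). It made up 0.157% to 0.185% of its pair with *Cox6b1* in KO and 0.231% to 0.268% in WT. *Cox7b2* and *Cox8c* had a count of 0 in every library.

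**Figure D3:**
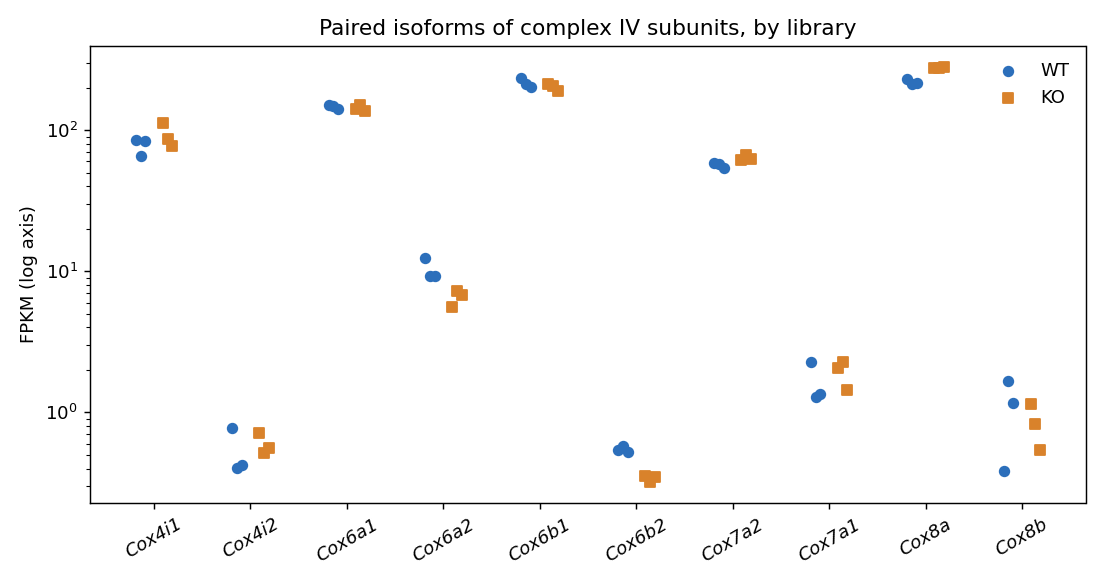
FPKM on a log axis for the broad and the tissue-restricted isoforms of 5 complex IV subunits, with 3 WT libraries as circles and 3 KO libraries as squares for each gene. The broad isoforms lie between 53.4 and 281 FPKM and the restricted ones at 12.4 FPKM or less, and *Cox6a2* and *Cox6b2* are the restricted isoforms whose groups do not overlap.

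Complex V, ATP synthase, gave 0 calls of 17 by edgeR with TMM factors, 1 unadjusted p under 0.05, 0 calls by DESeq2 and 1 by limma, which was *Atp5g2*, called lower by edgeR with the upper quartile as well. *Atp5b*, the catalytic beta subunit, was at 148, 140 and 140 FPKM in KO and at 141, 138 and 136 FPKM in WT. With 12323 to 14899 counts per library it was the best measured member, and its log2 fold change was 0.01 (SE 0.04, 95% interval -0.08 to 0.11). The alpha subunit *Atp5a1* was at 102, 100 and 90.9 FPKM in KO and at 106, 96.4 and 106 FPKM in WT (log2 fold change -0.11, adjusted p = 0.216). The gamma subunit *Atp5c1*, the central shaft, had a log2 fold change of 0.02 (adjusted p = 0.848), and *Atp5o*, which ties the catalytic head to the stator, of -0.07 (adjusted p = 0.396). The groups of these 4 genes overlapped.

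The c subunits, which form the rotor ring, come from *Atp5g1*, *Atp5g2* and *Atp5g3*, whose mature proteins are the same. *Atp5g3* had a level of 30.3 ± 1.1 FPKM in KO and 31.3 ± 1.4 FPKM in WT (SD, n = 3), and *Atp5g1* of 2.84 ± 0.23 and 2.66 ± 0.16 FPKM. The deposited values imply gene models of 2931 bases for *Atp5g3* and 9797 bases for *Atp5g1*, so this gap depends on those models. In CPM, which does not divide by length, the means were closer, at 87.7 and 27.6 in KO and 92.9 and 26.4 in WT. *Atp5g2* was at 0.709, 0.964 and 0.711 FPKM in KO and at 0.985, 1.56 and 1.46 FPKM in WT. Its groups did not overlap, on 18 to 49 counts per library, and the log2 fold change of -0.78 (SE 0.26) just missed the threshold (adjusted p = 0.0552). It was the gene called by limma. *Atp5g2* has 2 copies elsewhere in the annotated transcripts at 100% identity, *Gm10175* over 645 bases and *Gm10231* over 441 bases. How reads with several matching places were counted is not given, so the level and the change of *Atp5g2* are uncertain. *Atp5s* and *Atp5sl* have the symbol but are not core subunits of the enzyme, and their log2 fold changes were -0.11 and 0.19 (adjusted p = 0.703 and 0.300).

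The 13 subunits encoded in the mitochondrial genome, a list set beside the nuclear members, lay above 0 in their fitted changes. Of the 13 genes 10 were higher and 0 lower, where 17.7% of all genes were higher, and their median log2 fold change was 0.21. *mt-Nd2*, a membrane subunit of complex I, was at 1964, 1893 and 1833 FPKM in KO and at 1471, 1430 and 1377 FPKM in WT (log2 fold change 0.38, SE 0.04, adjusted p = 5.19e-04). *mt-Nd6* had the largest log2 fold change, 0.53 (SE 0.13, adjusted p = 0.0176), and lost its call without KO replicate 3, WT replicate 1 or WT replicate 2. It lies on the opposite strand to its neighbours, and whether reads were counted by strand is not given. *mt-Nd1*, *mt-Nd3*, *mt-Nd4*, *mt-Nd4l*, *mt-Nd5*, *mt-Co2*, *mt-Co3* and *mt-Atp8* were the other genes called, with log2 fold changes from 0.12 to 0.32. *mt-Co1* (0.11, adjusted p = 0.0747), *mt-Atp6* (0.10, adjusted p = 0.0840) and *mt-Cytb* (0.06, adjusted p = 0.367) were not. The count of 10 fell to 5 without WT replicate 2 and to 6 without WT replicate 3. It was 12 with library size, 7 with the upper quartile and 13 with marker scaling. With TMM and all 6 libraries, 0 of the 13 genes were beyond 1.5-fold, whereas *mt-Nd6* reached 0.90 on the log2 scale with marker scaling and 0.69 without WT replicate 3.

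A ratio within each library does not depend on the scaling. The 13 mitochondrial genes took 4.11%, 4.002% and 3.97% of all counts in KO and 3.64%, 3.46% and 3.43% in WT. The 83 nuclear members together took 0.649%, 0.622% and 0.609% in KO and 0.631%, 0.603% and 0.604% in WT, with overlapping groups. The ratio of mitochondrial to nuclear counts was thus 6.32, 6.44 and 6.52 in KO and 5.77, 5.73 and 5.67 in WT. The 3 KO libraries lay above the 3 WT libraries, for which an exact two-sided permutation test gives p = 0.1, the smallest that 3 against 3 libraries allow. The libraries were made from RNA selected with oligo(dT). In the same libraries 11 of 11 endothelial markers were higher, and 11 of 12 fibroblast and 9 of 15 cardiomyocyte markers were lower. Of 10 macrophage markers 6 were lower and 1 higher. The part of these shifts in the mitochondrial values was not tested.

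**Figure D4:**
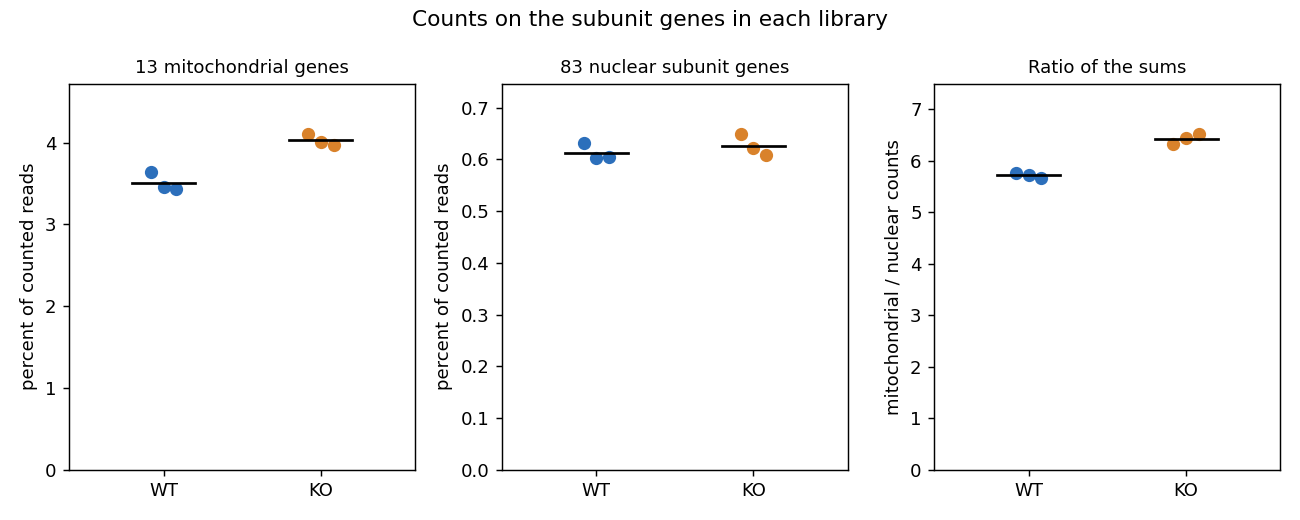
Share of all counts on the 13 mitochondrial genes (left) and the 83 nuclear subunit genes (middle), in percent, and the ratio of these sums (right), with a point for each library, a black line at each group's mean, and y axes from 0. The ratio lies at 6.32 to 6.52 in KO and at 5.67 to 5.77 in WT, while the nuclear shares overlap.

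Genes that work with the subunits were read from lists of partners, assembly factors, citric acid cycle enzymes, regulators and mitochondrial ribosomal proteins. Of 12 partners and subunits outside the symbol rule 2 were higher (16.7%, beside 17.7% of all genes) and 0 lower. *Cycs*, cytochrome c, was at 2.16, 1.80 and 1.43 FPKM in KO and at 1.003, 1.225 and 1.19 FPKM in WT (log2 fold change 0.62, SE 0.19, adjusted p = 0.0390). Its KO libraries all lay higher, but it was called in 8 of 15 alternative settings, and was lost with DESeq2, with the replicate block, and without KO replicate 1 or 2 or any of the WT replicates, where its log2 fold change was 0.48 to 0.67. *Etfa*, a subunit of the electron transfer flavoprotein, was the other (0.25, adjusted p = 0.0475). *Cyc1*, cytochrome c1 of complex III, had a log2 fold change of 0.07 (adjusted p = 0.332), and *Ndufa4l2*, a paralogue of *Ndufa4* known from hypoxia, of -0.66 (SE 0.27, adjusted p = 0.108).

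Of 47 assembly factors 3 were higher (6.38%, where 17.7% of all genes were higher) and 0 lower, with a median of 0.01. *Ndufaf4*, an assembly factor of complex I, was at 3.50, 3.79 and 3.34 FPKM in KO and at 1.77, 1.76 and 1.35 FPKM in WT. Its groups were far apart (log2 fold change 1.09, SE 0.13, adjusted p = 5.09e-04), and it was called in 15 of 15 alternatives. *Lrpprc*, which stabilizes mitochondrial mRNA, rose by 0.55 on the log2 scale (adjusted p = 0.00203), also in 15 of 15, and *Cox18*, which inserts a complex IV subunit into the membrane, by 0.37 (adjusted p = 0.0118). Of 13 citric acid cycle genes 3 were higher (23.1%) and 0 lower, among them *Suclg2* (0.39, adjusted p = 0.0106) and *Idh3a* (0.24, adjusted p = 0.0219). The mitochondrial ribosome had 9 higher and 5 lower of 77 (18.2%, where 30.2% of all genes passed in either direction), with *Mrps6* (0.50, adjusted p = 0.00939) and *Mrps12* (-0.75, adjusted p = 0.00502) at the ends of its called range.

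Among 13 regulators of mitochondrial biogenesis 3 were higher (23.1%, where 17.7% of all genes were higher) and 0 lower. *Ppargc1a*, the coactivator known for raising the expression of subunit genes, was at 4.42, 4.13 and 4.64 CPM in KO and at 0.490, 0.478 and 0.640 CPM in WT. The groups were far apart (log2 fold change 3.02, SE 0.23, adjusted p = 5.76e-05), at 54 to 72 counts per KO library and 7 to 9 per WT library. Its paralogue *Ppargc1b* (0.87, SE 0.25, adjusted p = 0.0324) and *Tfam*, which packages and helps to transcribe mitochondrial DNA (0.26, SE 0.07, adjusted p = 0.0280), were also higher. The transcription factors *Nrf1* (0.10, adjusted p = 0.553), *Gabpa* (-0.11, adjusted p = 0.206), *Esrra* (0.14, adjusted p = 0.187) and *Yy1* (-0.06, adjusted p = 0.514), which are known to bind promoters of such genes, did not pass the threshold. Beside these values stands the rise of the 11 endothelial markers, whose median was 2.55 on the log2 scale, and its part in them was not tested.

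The promoters of the members were searched for the letters that NRF1, ETS factors such as GABPA, and YY1 are known to bind. RefSeq promoters (GRCm38.p6, 250 bases before to 50 after the start) were matched by symbol for 66 of the 83 members, and both strands were searched. The NRF1 core of 10 letters, which is GCATGCGC with GC before it, was in the promoters of 5 members (7.58%) and of 1.07% of all 27025 genes with a promoter. The shorter GCATGCGC, which the core contains and which was added after the data were seen, was in 10 (15.2%) against 3.05%. The ETS letters CCGGAAG were in 16 (24.2%) against 9.93%, and the YY1 letters AAGATGGCG in 7 (10.6%) against 1.64%. The 6 called members with a promoter held them in 0, 1, 1 and 1 promoters, in the order given. The comparison genes were not restricted to the 14084 that passed the filter, and the base content of the promoters was not matched. The shares are therefore not shown to be particular to subunit genes. A match is a description of letters, and its absence says only that they are not in this window.

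These 8 windows are shown because they place the NRF1 letters, given in capitals, within the 250 bases before the start of a member. In the other 2 of the 10 genes, *Uqcrc1* and *Uqcr11*, the letters lie after the start or across it. Each is 30 bases, 5′ to 3′ on the strand of the gene.
Cox6a1: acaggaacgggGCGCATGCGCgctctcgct
Ndufa11: acctgcactgcGCGCATGCGCgcacgcctt
Atp5g2: tggctccggccGCGCATGCGCagagccttc
Atp5k: ctttcactgcgGCGCATGCGCctttctggc
Ndufa6: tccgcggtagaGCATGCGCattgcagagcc
Ndufa8: gcgcttgcgcgtcgctggagacGCATGCGC
Sdhb: aagcccagtggGCATGCGCcctacgggccg
Atp5l: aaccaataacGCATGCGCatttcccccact

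The upper 4 hold the full core and the lower 4 its shorter part. They lie at chr5:115349102-115349131 (*Cox6a1*, minus strand), chr17:56717691-56717720 (*Ndufa11*, plus), chr15:102671071-102671100 (*Atp5g2*, minus), chr5:108434431-108434460 (*Atp5k*, minus), chr15:82354356-82354385 (*Ndufa6*, minus), chr2:36049339-36049368 (*Ndufa8*, minus), chr4:140961206-140961235 (*Sdhb*, plus) and chr9:44920963-44920992 (*Atp5l*, minus). Of the 8, 4 overlap the interval of the gene as the deposited table lists it (*Atp5g2*, *Atp5k*, *Ndufa8* and *Sdhb*). *Ndufa8* is the called member among them, and in this gene the letters end at the base before the RefSeq start. The other 7 genes did not pass the threshold, with log2 fold changes of -0.07 for *Cox6a1*, -0.02 for *Ndufa11*, -0.78 for *Atp5g2*, 0.01 for *Atp5k*, -0.05 for *Ndufa6*, 0.02 for *Sdhb* and -0.15 for *Atp5l*.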

How the data were processed

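RNA was sequenced from cardiac fibroblasts with a stranded kit after oligo(dT) selection. The submitters' processing notes name HISAT2, edgeR and the builds mm10 and GRCm38.p4, and the counting tool, annotation and strand setting are not given in the sources used here. The authors deposited whole-number counts per gene, without normalization, and FPKM values, which scale each count to the length of the gene and the total of its library. From the counts, edgeR 4.0.16 (R 4.3.3) was run with filterByExpr, TMM factors, glmQLFit and glmQLFTest (Benjamini-Hochberg adjustment over all 14084 genes tested, threshold 0.05), with all 6 libraries and no covariate. CPM values are TMM-scaled and FPKM values are as deposited. Libraries that do not overlap were counted on CPM. Log2 fold changes are KO against WT, and intervals are 95%. Exact permutation tests (two-sided) over libraries were run on single values.

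The results were recomputed without the filter, with a filter of 1 CPM on the mean, with DESeq2 1.42.0, with library size or upper quartile in place of TMM, marker scaling, limma 3.58.1 on log2(FPKM + 1) and log2(FPKM + 0.1), a fold change above 1.5 in addition, the replicate block, and each library left out. The members, lists and rules were chosen with earlier results of these data known. The rule for named genes took, per complex, the largest called rise and fall and the highest level, besides core subunits (some genes of these lists are not reported here), tissue isoforms and, in each list, the largest called rise and fall with *Ppargc1a*, *Cycs*, *Cyc1* and *Ndufa4l2*. Other genes, among them *Ndufa8*, *Ndufa9*, *Ndufb8*, *Cox6c* and *Atp5g2*, were named after their values were seen. Near-identical copies were sought with BLAST in GENCODE M21 transcripts, and exon overlaps in its annotation. Between replicates of a label 22.5% to 32.1% of genes differed at an unadjusted p under 0.05, more than counting error gives, so none was the same library deposited again. Plots came from matplotlib 3.10.9 (Python 3.11.15). Precision is limited by 3 libraries per label.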

Additional observations from a re-analysis of the deposited data

How the results depend on the processing

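The count of 6 members higher and 2 lower was 6 and 1 without the filter, 6 and 2 with a mean CPM of at least 1, 4 and 1 with DESeq2, 9 and 1 with library size, 5 and 8 with the upper quartile, 57 and 0 with marker scaling, 10 and 4 with limma at either pseudocount, and 0 and 1 with a fold change above 1.5 in addition. Leaving out a library in turn gave 4 to 7 higher and 0 to 2 lower. With the replicate block it was 6 and 1, with *Cox6a2* and *Ndufa7* lost and *Ndufa4* gained. Whether the replicate numbers pair KO with WT libraries is not given. Same-numbered KO and WT libraries correlated in their deviations at 0.002, 0.003 and 0.035. The last, of replicates 3, was the highest of all pairs. KO replicate 1 correlated best with WT replicate 2, and KO replicate 2 with WT replicate 1, though only at 0.004 against 0.003. Values so near 0 cannot show whether the numbers stand for pairs. *Cox8a*, *Ndufa5*, *Ndufa8* and *Ndufa9* were called in every one of the 15 alternatives that give a p. Under marker scaling, which moved the median of all genes to 0.35, 12 named genes that passed the threshold in either fit turned from below to above 0, because all genes move up together: *Ndufs7* 0.35, *Ndufs8* 0.35, *Sdha* 0.25, *Sdhc* 0.30, *Uqcrc1* 0.29, *Uqcrc2* 0.20, *Uqcrfs1* 0.29, *Uqcrb* 0.31, *Atp5a1* 0.26, *Atp5o* 0.30, *Cox6a1* 0.30 and *Ndufa7* 0.17. *Ndufa2*, called in neither fit, turned to 0.14. Some genes near 0 also changed sign elsewhere without being called in either fit. The medians per complex moved by less than the spread in 69 of 75 settings, the exceptions being marker scaling and complex IV without KO replicate 3, at 0.10. For the mitochondrial genes, whose alternatives were added after seeing the data, the count of 10 higher was 5 to 10 when a library was left out and 0 with a fold change above 1.5. *Cox8b* and *Cox4i2*, at the lowest counts, were tested without the filter and with DESeq2, and were called in neither.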

Other observations

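Some subunit genes have near-identical copies elsewhere in the genome, among which the counting could split or misplace reads. At 95% identity over at least 150 bases, 22 of the 83 members had such a copy in the annotated transcripts. Of the 8 called members 1 had a copy, *Cox6c*. A row of the table named *Gm10250*, a copy of the complex V gene *Atp5h*, held 766 to 978 counts per library, against 676 to 884 for *Atp5h* itself. *Gm10250* was higher in KO (log2 fold change 0.25, SE 0.08, adjusted p = 0.0442 from edgeR), and *Atp5h*, a stator subunit, had a log2 fold change of 0.18 (SE 0.08, adjusted p = 0.132). *Gm11273*, a copy of *Cox5b*, held 395 to 515 counts against 804 to 953 (log2 fold change 0.14, adjusted p = 0.208, against 0.03 for *Cox5b*). *BC002163*, a copy of the complex I gene *Ndufs5*, held 128 to 176 counts against 295 to 400 (log2 fold change -0.23, adjusted p = 0.120, against -0.13). *Cox7c*, a small complex IV subunit with 3 copies, had 30 to 103 counts per library and a log2 fold change of -0.56 (SE 0.31, adjusted p = 0.219). How reads with several matching places were counted is not given, so the level of these genes is uncertain.

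Exons of 11 members share over 10% of their bases with another gene. *Ndufb6* shares the most, 39.0% with *Smim27* on the opposite strand, and *Ndufa13* shares 29.98% with *Tssk6*. Neither member passed the threshold (log2 fold changes 0.04 and -0.12).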
